A study of Mus musculus with 12 samples.

Results

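Livers of FVB/N mice, an inbred mouse strain, that had received a control small interfering RNA (siRNA) were compared between day 13 and day 9. This baseline comparison holds 6 of the 12 libraries of the series, 3 at each day, chosen by their labels alone. The control siRNA was directed at luciferase, a gene that mice do not have. It was packed in lipid nanoparticles, and a dose of 0.5 mg/kg went into the tail vein, with 1 injection per 5 days, of mice that were 6 to 8 weeks old at injection. Both control groups therefore carried nanoparticles and an siRNA, and no uninjected liver was used here. The other 6 libraries came from livers given siRNA against Eif3m, which codes for a subunit of the translation initiation factor eIF3, at the same 2 days. The labels call the libraries replicates of livers and do not state separate animals, so the p-values speak for the spread among these libraries, part or all of which may be technical. The labels state neither the time of day nor feeding nor sex.

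Messenger RNA of ground liver was captured and sequenced, and the deposited values are estimated counts for each of 50686 genes. The day 9 control libraries held 38783564, 52012851 and 42469185 counts and the day 13 control libraries 8085423, 7775566 and 9222719, so the day 9 libraries were on average 5.31 times as deep. Day, library set and depth coincide, and their contributions cannot be told apart. The median SD of log2 CPM (counts per library size after TMM scaling) within a group was 0.27 among the day 13 controls and 0.14 among the day 9 controls, or 0.19 after the latter were thinned to the same total. Day 13 replicate 3 stood apart from the other day 13 controls on the second principal component, at -72.8 against 25.1 and 32.9. Day 9 replicate 1 stood apart in RNAs that stay in the nucleus, with Malat1 at 563 CPM and Neat1 at 572 CPM, against 77.8 and 78.1 CPM in replicate 2, 46.5 and 76.1 CPM in replicate 3 and at most 58.5 and 88.0 CPM in the day 13 controls. All 6 livers expressed albumin strongly, at 8.53 to 9.12% of counts at day 9 and 14.4 to 14.7% at day 13. Xist, the RNA of the inactive X chromosome, lay at 113 to 293 CPM in all 6 libraries and the Y-linked genes together had 0 or 1 count in each. Because each library is bulk tissue, fewer cells of a type and less RNA per cell cannot be told apart.

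The liver keeps a circadian clock in which BMAL1 and CLOCK drive the Per, Cry and Rev-erb genes, whose products then repress the drivers or one another, and RNA levels swing over the day. Body temperature and feeding add rhythms of their own: heat shock genes follow temperature, PPAR alpha turns on fatty acid oxidation in fasting, and SREBP factors turn on lipid synthesis after a meal. Resident macrophages called Kupffer cells, endothelial cells and stellate cells make up much of the rest of the organ, and hepatocytes secrete acute phase proteins in inflammation.

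Of 14248 genes tested with edgeR's quasi-likelihood test, 1568 were higher at day 13 and 1633 lower at an adjusted p under 0.05. These are 11.0% and 11.5% of the genes tested, 22.5% together, and every count of members below is to be read against them. Of the called genes 467 were at least 2-fold higher and 528 at least 2-fold lower, and the median log2 difference over all genes was -0.02. All log2 differences are day 13 minus day 9. The 2 groups did not overlap for 5462 genes, or 38.3%. With an offset for gene length and GC content the split moved to 2496 higher and 1579 lower, 61.3% higher among called genes against 49.0%. After thinning of every library to the smallest total in the series, 1171 genes were higher and 1243 lower among 12372 tested, and 2290 of the 3003 calls that could be tested again kept their call and direction. Leaving out day 9 replicate 2 left 998 genes higher.

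**Figure D1:**
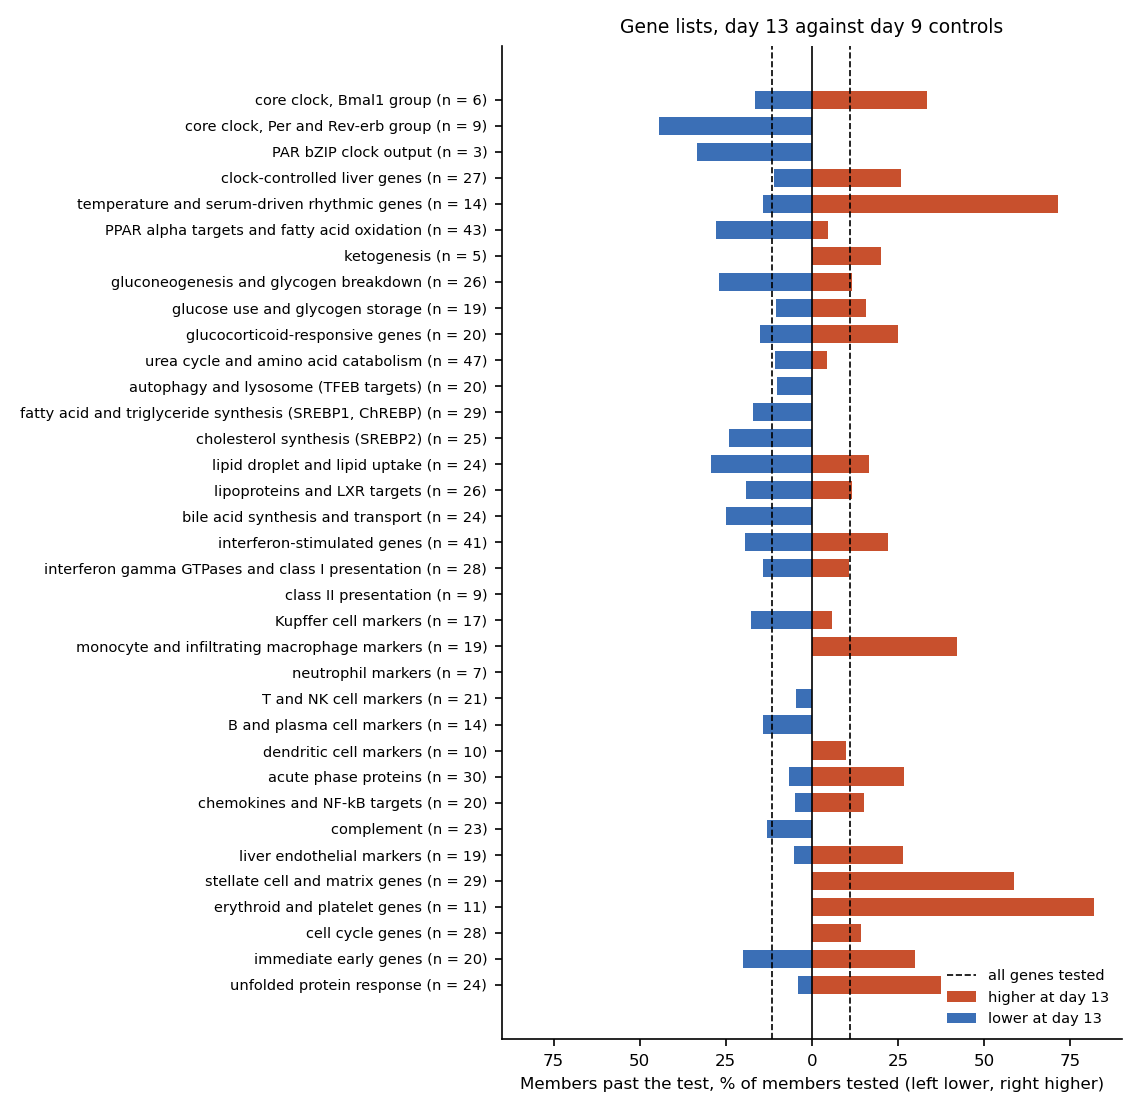
Share of the tested members that passed the test, for the clock, fasting, lipid and immune lists and for the erythroid, matrix, endothelial, immediate early, unfolded protein response and cell cycle lists, higher at day 13 to the right and lower to the left, in percent; n is the number of members tested and the dashed lines mark the share over all genes, 11.0% higher and 11.5% lower. Of the lists plotted, the longest bars to the right belong to the erythroid and platelet genes (9 of 11), the temperature-driven genes (10 of 14) and the matrix genes (17 of 29).

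The core clock genes did not move as one block. In the group that peaks with BMAL1, 2 of 6 tested members were higher and 1 lower, with a median log2 difference of 0.53; in the Per and Rev-erb group, 0 of 9 were higher and 4 lower, with a median of -0.35. Arntl, which codes for BMAL1 and lies at chr7:113207465-113314126 (+ strand, GRCm38), measured 1.49, 1.45 and 1.496 CPM at day 9 and 3.63, 14.1 and 3.03 CPM at day 13. Its day 9 libraries were nearly equal, and day 13 replicate 2 was far above the other day 13 libraries. The groups did not overlap, with a log2 difference of 2.19 ± 0.68 (SE, adjusted p = 0.045), but the call was lost without that library (adjusted p = 0.23) and without any 1 of the day 9 libraries (adjusted p = 0.10 to 0.11). After thinning the call was lost too (edgeR adjusted p = 0.062). The same held by limma-voom, with a replicate block and with no filter on low counts. Cry1, a repressor whose RNA peaks late in the cycle, measured 4.78, 5.41 and 5.43 CPM at day 9 and 9.82, 16.7 and 9.42 CPM at day 13, all 3 day 13 values above all 3 at day 9, with a log2 difference of 1.19 ± 0.23 (SE, adjusted p = 0.0026). Clock (log2 difference 0.51, adjusted p = 0.19), Nfil3 (0.56, adjusted p = 0.11) and Rora (-0.60, adjusted p = 0.078) did not pass the test. The count of higher members was 1 without any 1 of the day 9 libraries, without day 13 replicate 2 and after thinning. It was 3 without day 13 replicate 1 or 3. The lower count was 2 without day 13 replicate 3, 0 without any other library and 1 after thinning.

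Nr1d2, which codes for the repressor REV-ERB beta, was the member of the opposing group with the smallest adjusted p. It measured 107, 127 and 103 CPM at day 9 and 46.7, 45.2 and 70.6 CPM at day 13, with no overlap and a log2 difference of -1.05 ± 0.20 (SE, adjusted p = 0.0030), called in every fit that left out 1 library. Its paralog Nr1d1 (REV-ERB alpha) measured 176, 149 and 109 CPM at day 9 and 148, 135 and 101 CPM at day 13, with overlapping groups and a log2 difference of -0.18 ± 0.21 (SE, adjusted p = 0.59). Per3 measured 66.0, 49.5 and 47.0 CPM at day 9 and 19.2, 9.55 and 32.5 CPM at day 13, lowest in day 13 replicate 2, with a log2 difference of -1.39 ± 0.40 (SE, adjusted p = 0.030); leaving out any library but day 13 replicate 3 gave adjusted p values of 0.051 to 0.086. Per1 and Per2, the other Period repressors, did not pass the test, at log2 differences of 0.22, adjusted p = 0.66 and 0.69, adjusted p = 0.069. Cry2 was lower (log2 difference -0.52, adjusted p = 0.013), a call lost without day 13 replicate 2 (adjusted p = 0.055). Bhlhe41, a repressor of BMAL1-driven genes, was lower (log2 difference -1.74, adjusted p = 0.039) at under 6 CPM, and leaving out day 9 replicate 1 or 2 or any day 13 library ended that call (adjusted p = 0.076 to 0.13). Bhlhe40 and Ciart did not pass. Without day 13 replicate 2 only 1 of the 4 lower calls in the Per and Rev-erb group was left, without day 9 replicate 1 or 2 or day 13 replicate 1 there were 2, and after thinning there were 2. The count of 0 higher was 1 by DESeq2, at an unadjusted p under 0.05 and without day 13 replicate 2.

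**Figure D2:**
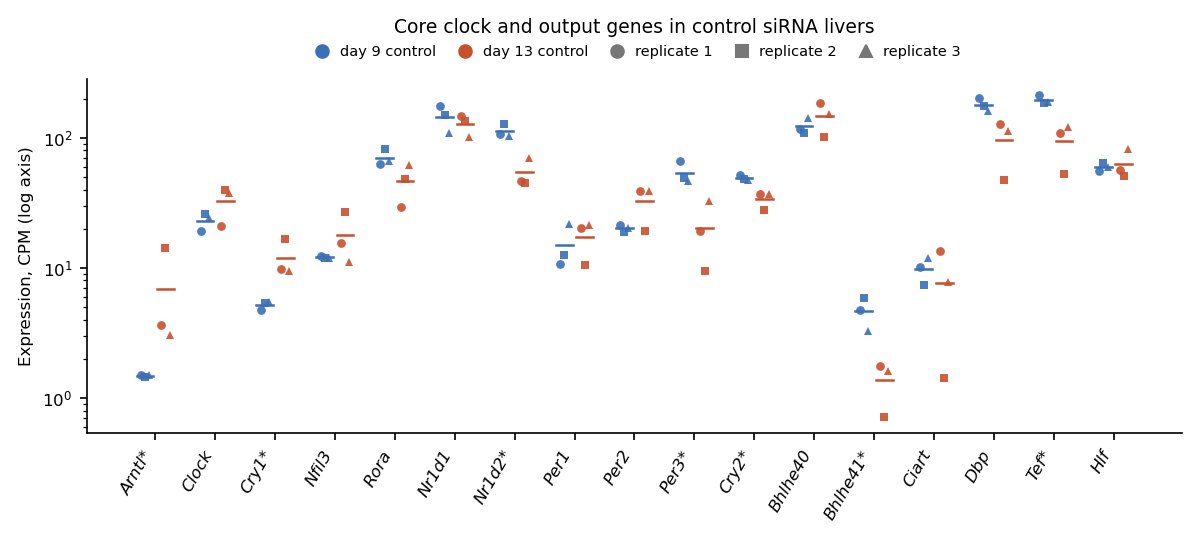
CPM on a log axis of the core clock and output genes named in the text in the 3 day 9 (blue) and 3 day 13 (red) control libraries; marker shapes give the replicate, bars the group mean and an asterisk a gene past the test. Day 13 replicate 2 (red squares) is the highest library for Arntl, Cry1 and Nfil3 and the lowest for Nr1d2, Per3, Ciart, Dbp, Tef and Hlf.

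The PAR bZIP factors Dbp, Tef and Hlf carry the clock signal to enzymes of the liver. Tef measured 214, 187 and 189 CPM at day 9 and 109, 52.7 and 122 CPM at day 13. Tef differed by -1.05 ± 0.28 on the log2 scale (SE, adjusted p = 0.021); without day 9 replicate 1 its adjusted p was 0.061. Dbp measured 203, 174 and 162 CPM at day 9 and 128, 47.3 and 114 CPM at day 13, all 3 day 13 values below all 3 at day 9, and missed the threshold with a log2 difference of -0.90 ± 0.35 (SE, adjusted p = 0.093). Hlf measured 55.8, 64.5 and 59.9 CPM at day 9 and 56.9, 51.3 and 82.3 CPM at day 13, with overlapping groups. In day 13 replicate 2 Dbp, Tef, Hlf, Per3, Ciart and Nr1d2 were each lower, and Arntl, Cry1 and Nfil3 higher, than in the other 5 control libraries.

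Promoter letters are shown for the called core clock genes that held a match, since these genes differed in both directions between the days. The 250 bases before the RefSeq start (build GRCm38.p6) were searched on both strands for the E-box CACGTG bound by BMAL1 and CLOCK, the D-box TTATGNAA bound by PAR bZIP factors and the element TAGGTCA bound by ROR and REV-ERB. Of all 32851 promoters 6.02%, 3.07% and 2.23% held the 3 motifs. Among the 19 genes of the core clock and output lists 16 had a promoter entry, of which 5 held an E-box (Bhlhe41, Ciart, Cry1, Per1 and Tef), 2 a D-box (Per1 and Per3) and 1 the ROR element (Nfil3). The sequences below run 5′ to 3′ on the strand of the gene, with the match in capitals, and positions are counted back from the start. A match is a description of letters, and no binding was measured.
Cry1: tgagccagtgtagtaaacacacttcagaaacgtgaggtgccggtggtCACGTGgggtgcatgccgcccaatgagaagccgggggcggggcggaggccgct
Bhlhe41: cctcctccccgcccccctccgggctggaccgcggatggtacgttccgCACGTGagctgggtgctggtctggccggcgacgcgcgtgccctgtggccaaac
Tef: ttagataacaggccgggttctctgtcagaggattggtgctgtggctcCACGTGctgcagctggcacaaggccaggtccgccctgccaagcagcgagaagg
Per3: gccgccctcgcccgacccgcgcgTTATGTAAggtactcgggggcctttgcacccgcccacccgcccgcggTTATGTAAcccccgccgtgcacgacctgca
The Cry1 stretch lies at chr10:85185062-85185161 on the minus strand with its E-box at -60. That of Bhlhe41, at chr6:145865521-145865620 on the minus strand, has it at -153, and that of Tef, at chr15:81802499-81802598 on the plus strand, at -127. Per3, at chr4:151044794-151044893 on the minus strand, holds 2 D-boxes of the same letters at -205 and -158. E-boxes thus stood before a gene that was higher at day 13, Cry1, and before 2 that were lower, Bhlhe41 and Tef. No match to any of the 3 motifs was found in the windows of Arntl, Nr1d2 and Cry2.

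Of 27 tested clock-controlled liver genes, known outputs of the liver clock, 7 were higher and 3 lower, with a median of 0.01. Upp2, a uridine phosphorylase, measured 476, 583 and 671 CPM at day 9 and 224, 199 and 294 CPM at day 13. Upp2 differed by -1.27 ± 0.22 on the log2 scale (SE, adjusted p = 0.0016). Rgs16, a brake on G protein signalling, fell from 68.7, 47.0 and 24.95 CPM at day 9 to 11.8, 4.13 and 11.5 CPM at day 13, with a log2 difference of -2.34 ± 0.51 (SE, adjusted p = 0.010). Tsku, which codes for the secreted protein tsukushi, measured 10.2, 14.5 and 24.4 CPM at day 9 and 87.1, 37.0 and 77.0 CPM at day 13, and Alas1, the rate-limiting enzyme of heme synthesis, 106, 268 and 278 CPM at day 9 and 1115, 439 and 895 CPM at day 13. Their log2 differences were 2.04, adjusted p = 0.0047 and 1.91, adjusted p = 0.027, and the call of Alas1 was lost without any 1 of 5 libraries, with the largest adjusted p at 0.075 without day 13 replicate 1. In both genes day 13 replicate 2 was the lowest of its group and still above every day 9 library. Without day 9 replicate 1 or 2 the list had 3 higher members, and without day 13 replicate 1 it had 4.

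Heat shock and other temperature-driven rhythmic genes had the largest share of called members among the 53 lists. Of 14 members 10 were higher and 2 lower, with a median log2 difference of 1.27. The 10 higher calls stayed 10 in every fit that left out 1 library, in the 6 control libraries alone and after thinning. Of the 8 members without near-identical copies, 6 were higher and 1 lower. The near-identical neighbours Hspa1a and Hspa1b are both among the 10. Hspa8, the constitutive HSP70 chaperone at chr9:40800984-40810087 (+ strand, GRCm38), measured 277, 283 and 291 CPM at day 9 and 1252, 1389.6 and 1287 CPM at day 13. The 3 libraries of each day lay close together and the 2 days far apart, with a log2 difference of 2.20 ± 0.12 (SE, adjusted p = 9.3e-08). Hspa8 shares 61.2% of its 31-base words with other genes, and summed with its 4 copies the log2 ratio of the means was 1.36. Hspa1b, an inducible HSP70 gene, measured 5.07, 4.59 and 4.61 CPM at day 9 and 38.1, 32.9 and 58.6 CPM at day 13, with a log2 difference of 3.19 ± 0.26 (SE, adjusted p = 5.8e-06), and summed with its near-identical neighbour Hspa1a the log2 ratio was 3.14. Hsph1, a nucleotide exchange factor for HSP70, measured 45.2, 43.7 and 44.0 CPM at day 9 and 154, 158 and 187 CPM at day 13. Hsph1 differed by 1.91 ± 0.13 on the log2 scale (SE, adjusted p = 4.7e-07). Its 3 day 9 libraries hardly differed.

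The co-chaperones Dnajb1 (log2 difference 1.41, adjusted p = 8.4e-05), Chordc1 (1.43, adjusted p = 4.7e-05) and Stip1 (0.72, adjusted p = 0.00035) were higher too, as were Hsp90aa1, the inducible HSP90 (1.13, adjusted p = 0.00070), Creld2, an endoplasmic reticulum chaperone (1.80, adjusted p = 0.00065), and Hspe1, the mitochondrial HSP10 (1.03, adjusted p = 7.7e-05). Hspd1, the partner of Hspe1, did not pass the test (log2 difference -0.21, adjusted p = 0.15). Cirbp, whose RNA is induced by cold, measured 21.4, 13.0 and 10.8 CPM at day 9 and 7.54, 5.41 and 4.98 CPM at day 13, with a log2 difference of -1.34 ± 0.24 (SE, adjusted p = 0.0017), and its groups did not overlap. Rbm3, a second cold-induced gene that codes for an RNA-binding protein, did not pass (log2 difference -0.16, adjusted p = 0.41).

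**Figure D3:**
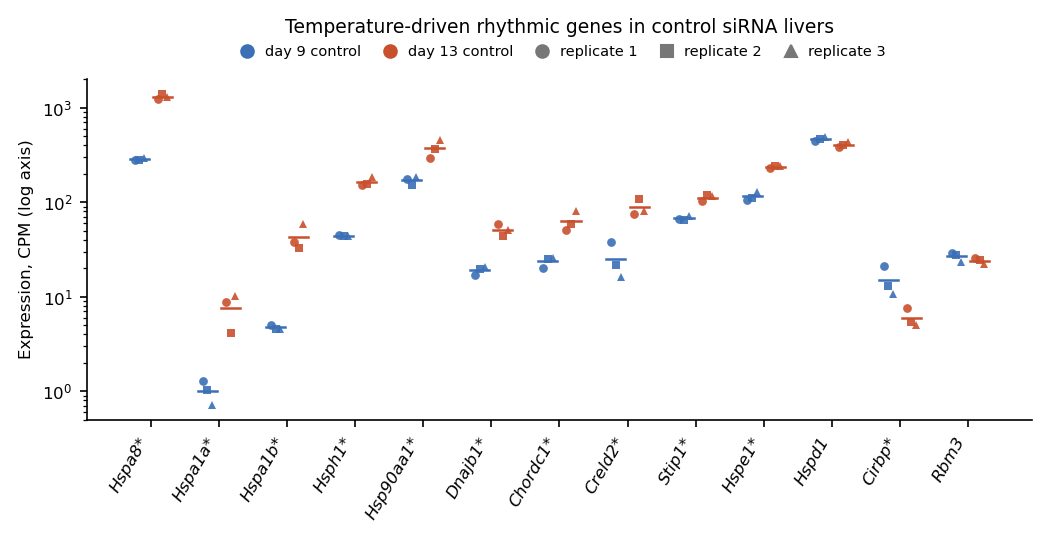
CPM on a log axis of the temperature-driven genes named in the text in the day 9 (blue) and day 13 (red) control libraries, with replicate given by marker shape, group means as bars and an asterisk for genes past the test. For Hspa8 the red points lie at 1252 to 1390 CPM and the blue points at 277 to 291 CPM, while Cirbp runs the other way and Hspd1 and Rbm3 did not pass.

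The core of the heat shock element, GAANNTTC, was searched in the same way after the values were seen. It stood before 6.69% of all promoters' starts and in 4 of the 10 members with an entry, Hspa1a, Hspa1b, Hspd1 and Hspe1. The stretches of Hspa1b and Hspe1 are shown because both genes were higher at day 13 in every library.
Hspa1b: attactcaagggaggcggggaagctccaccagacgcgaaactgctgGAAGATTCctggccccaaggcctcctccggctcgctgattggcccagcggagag
Hspe1: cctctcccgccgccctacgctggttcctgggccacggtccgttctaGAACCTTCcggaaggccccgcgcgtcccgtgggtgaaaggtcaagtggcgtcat
The first lies at chr17:34959289-34959388 on the minus strand with its match at -104, and the second at chr1:55088018-55088117 on the plus strand with its match at -84.

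Among genes of the fasting response, PPAR alpha targets and fatty acid oxidation enzymes were more often lower than higher at day 13. Of 43 members 12 were lower and 2 higher (median -0.33); the lower count was 6 to 8 without any 1 of day 9 replicates 1 and 2 and day 13 replicates 1 and 2, and 13 after thinning. The higher count was 1 without day 9 replicate 1 or 2 or day 13 replicate 2 or 3, and after thinning. Cyp4a10, a fatty acid omega-hydroxylase, measured 342, 414 and 399.7 CPM at day 9 and 103, 74.2 and 72.3 CPM at day 13. Cyp4a10 differed by -2.21 ± 0.17 on the log2 scale (SE, adjusted p = 1.8e-06). The day 13 values all lay far below those of day 9, and summed with its copies the log2 ratio was -2.13. Its relative Cyp4a14 measured 50.7, 107 and 72.4 CPM at day 9 and 23.01, 20.1 and 19.4 CPM at day 13. Cyp4a14 differed by -1.88 ± 0.37 on the log2 scale (SE, adjusted p = 0.0056). Cpt1a, the gate of mitochondrial oxidation, was lower (log2 difference -0.45, adjusted p = 0.032), as was Angptl4, a secreted inhibitor of lipoprotein lipase (-0.91, adjusted p = 0.014). The 2 higher members were Ucp2, a mitochondrial carrier (0.65, adjusted p = 0.0076), and Pdk4, a kinase that holds back glucose oxidation (0.73, adjusted p = 0.037). Ketogenesis genes were mostly without a call, with 1 of 5 higher, the transporter Slc16a6 (1.01, adjusted p = 0.0068). Single libraries left out ended the calls of Cpt1a (adjusted p = 0.10 without day 13 replicate 2), Angptl4 (adjusted p = 0.058 without day 13 replicate 2) and Pdk4 (adjusted p = 0.20 without day 13 replicate 2).

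Glucose genes moved in both directions. G6pc, the glucose-6-phosphatase that releases glucose from hepatocytes, measured 27.5, 31.5 and 46.3 CPM at day 9 and 149, 204 and 214 CPM at day 13, with a log2 difference of 2.43 ± 0.34 (SE, adjusted p = 0.00078) and no overlap. Gpt2, a transaminase that feeds alanine carbon to gluconeogenesis, measured 359, 334 and 394 CPM at day 9 and 157, 148 and 188 CPM at day 13. Gpt2 differed by -1.14 ± 0.12 on the log2 scale (SE, adjusted p = 3.3e-05). In all, 3 of 26 gluconeogenesis and glycogen breakdown genes were higher (G6pc, Got1 and Slc37a4) and 7 lower, with a median of -0.12; the lower count was 4 without day 9 replicate 2 or day 13 replicate 1 or 2. Pck1, the other control point of the pathway, did not pass (log2 difference 0.53, adjusted p = 0.089). Ppp1r3g was among the 7 lower calls but had no count in any day 13 control library and under 1 CPM at day 9, at least 1.54-fold lower against a floor of 3 counts in each library; the median of the list is the same with the gene at that bound. Slc2a2, the glucose transporter of hepatocytes, was lower (log2 difference -0.84, adjusted p = 0.0023). Of 19 genes of glucose use and glycogen storage 3 were higher and 2 lower; the higher count was 0 without day 13 replicate 1, and the lower count 1 without any library but day 13 replicate 3 and after thinning. The call of Slc37a4 could be lost as well, with the largest adjusted p at 0.072 without day 13 replicate 1.

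Several single genes of nutrient and hormone signalling differed strongly. Bmf, a pro-apoptotic BCL2 family gene, measured 26.0, 39.5 and 21.0 CPM at day 9 and 1.35, 1.99 and 1.41 CPM at day 13. Bmf differed by -4.20 ± 0.69 on the log2 scale (SE, adjusted p = 0.0025). Depp1, a FOXO target, measured 171, 134 and 59.9 CPM at day 9 and 14.4, 30.9 and 11.4 CPM at day 13. Depp1 differed by -2.70 ± 0.55 on the log2 scale (SE, adjusted p = 0.0078). No day 13 value of either gene reached the day 9 range. Trib3, a pseudokinase of the stress and nutrient response, measured 11.9, 10.8 and 8.52 CPM at day 9 and 2.42, 2.42 and 1.52 CPM at day 13. Trib3 differed by -2.32 ± 0.36 on the log2 scale (SE, adjusted p = 0.00081). Among 20 glucocorticoid-responsive genes 5 were higher and 3 lower: Tsc22d3 (GILZ) was higher (log2 difference 1.14, adjusted p = 0.00090), while Klf9 was lower (log2 difference -1.40, adjusted p = 0.00053) and the metallothionein Mt2 (-2.16, adjusted p = 0.010). Mt2 shares at least 20% of its 31-base words with another gene, and its sum with copies was not taken. Fkbp5, Sgk1 and Per1, which also answer to glucocorticoids, did not pass the test. Of 47 genes of the urea cycle and amino acid breakdown 2 were higher and 5 lower, and of 20 autophagy and lysosome genes 0 and 2, among them Gabarapl1 (-0.79, adjusted p = 0.0018). Both lists were called no more often than genes in general. The urea cycle list had 1 higher member without day 9 replicate 2 or day 13 replicate 1 or 2, and 1 lower member without day 9 replicate 1 and 3 without day 9 replicate 2 or 3 or day 13 replicate 2.

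The lipid synthesis genes that passed the test were all lower, against 11.0% higher and 11.5% lower over all genes tested. In either direction 22.5% of all genes were called, and neither list stood far from that share. In fatty acid and triglyceride synthesis 0 of 29 members were higher and 5 lower (median -0.20), and in cholesterol synthesis 0 of 25 higher and 6 lower (median -0.50). DESeq2 and limma-voom also called 0 higher in both lists, and 1 cholesterol gene was higher at an unadjusted p under 0.05. Lpin2, a phosphatidate phosphatase of triglyceride synthesis, measured 202, 213 and 204 CPM at day 9 and 75.6, 98.2 and 101 CPM at day 13. Lpin2 differed by -1.17 ± 0.14 on the log2 scale (SE, adjusted p = 9.2e-05). Acss2, which makes acetyl-CoA from acetate, measured 239, 137 and 315 CPM at day 9 and 109, 73.7 and 137 CPM at day 13. Acss2 differed by -1.11 ± 0.28 on the log2 scale (SE, adjusted p = 0.015). Day 9 replicate 2 lay at the level of the highest day 13 library, so the groups overlapped. Mid1ip1, an activator of acetyl-CoA carboxylase, was lower (log2 difference -1.18, adjusted p = 0.0021) and the desaturase Fads1 (-0.54, adjusted p = 0.0069). The main lipogenic enzymes Fasn (0.26, adjusted p = 0.51), Acaca (-0.02, adjusted p = 0.95) and Scd1 (-0.07, adjusted p = 0.86) did not pass. Lss, the lanosterol synthase, measured 106, 64.9 and 124 CPM at day 9 and 56.5, 46.7 and 57.2 CPM at day 13. Lss differed by -0.88 ± 0.20 on the log2 scale (SE, adjusted p = 0.0086). Day 9 replicate 2 was the lowest of the day 9 group for Lss as for Acss2, and above every day 13 value for Lss. The cholesterol list had 1 lower member without day 9 replicate 1, without day 9 replicate 3 and without day 13 replicate 2, 2 without day 13 replicate 1 and 9 in the fit with a replicate block. Srebf2, which codes for the factor SREBP2, was lower (log2 difference -0.53, adjusted p = 0.016), a call lost without day 9 replicate 1 or 3 or day 13 replicate 1 or 2 (adjusted p = 0.052 to 0.066).

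Genes of lipid uptake and storage moved in both directions. Lpl, the lipase that frees fatty acids from lipoproteins, measured 11.98, 12.4 and 9.73 CPM at day 9 and 24.8, 54.4 and 32.9 CPM at day 13. Lpl differed by 1.71 ± 0.22 on the log2 scale (SE, adjusted p = 0.00022). Fabp4, a fatty acid carrier of adipocytes and macrophages, measured 5.22, 5.02 and 5.12 CPM at day 9 and 14.3, 17.2 and 11.8 CPM at day 13. Fabp4 differed by 1.49 ± 0.19 on the log2 scale (SE, adjusted p = 0.00014). With the droplet coats Plin5 (1.08, adjusted p = 0.0021) and Plin4 (1.32, adjusted p = 0.025) they made up the 4 of 24 members higher; 7 were lower, among them the lipases Mgll (-0.64, adjusted p = 0.0075) and Lipe (-0.65, adjusted p = 0.0047) and the coat Plin2 (-0.58, adjusted p = 0.028). The lower count was 3 without day 9 replicate 1, and 4 without day 9 replicate 2 or day 13 replicate 3. Of other adipose and muscle markers besides Fabp4, Cidec, Car3 and Mylpf were tested and did not pass. In the lipoprotein list Apoc4 measured 458, 487 and 477 CPM at day 9 and 244, 217 and 159 CPM at day 13. Apoc4 differed by -1.20 ± 0.16 on the log2 scale (SE, adjusted p = 0.00020). Lpcat3, a phospholipid remodelling enzyme and LXR target, measured 119, 113 and 104 CPM at day 9 and 60.6, 61.0 and 53.0 CPM at day 13. Lpcat3 differed by -0.94 ± 0.17 on the log2 scale (SE, adjusted p = 0.0016). The list had 5 of 26 lower, or 3 without day 9 replicate 2, and 3 higher, or 0 without any 1 library but day 13 replicate 3. Of 24 bile acid genes 0 were higher, also by DESeq2, limma-voom and an unadjusted p under 0.05, and 6 lower, including Nr1h4, the bile acid receptor FXR (-0.38, adjusted p = 0.016), and Cyp27a1, the first enzyme of the alternative pathway (-0.47, adjusted p = 0.022). That count was 1 to 3 without any 1 library but day 13 replicate 2, which left 4. Cyp7a1, the rate-limiting enzyme of bile acid synthesis, did not pass (log2 difference 0.93, adjusted p = 0.30). Single libraries left out ended the calls of Plin2 (adjusted p = 0.12 without day 9 replicate 1), Plin4 (adjusted p = 0.12 without day 13 replicate 3), Nr1h4 (adjusted p = 0.063 without day 9 replicate 1) and Cyp27a1 (adjusted p = 0.092 without day 9 replicate 1).

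Immune cell markers did not all move one way. Of 19 markers of monocytes and infiltrating macrophages 8 were higher and 0 lower, with a median of 0.60 and summed levels of 88.8 to 108 CPM at day 9 and 170.0 to 223 CPM at day 13. Lyz2, the macrophage lysozyme, was a large part of these sums. It measured 36.8, 44.7 and 44.5 CPM at day 9 and 104, 133 and 95.0 CPM at day 13. Lyz2 differed by 1.40 ± 0.14 on the log2 scale (SE, adjusted p = 2.9e-05); the other 7 were Cd14, Cx3cr1, Fcer1g, Fcgr1, Ms4a6c, Ms4a7 and Tyrobp, at log2 differences of 0.64 to 1.99 and mostly under 10 CPM. After thinning 3 markers were called higher, and without day 13 replicate 2 there were 5. Single libraries left out ended the calls of Cx3cr1 (adjusted p = 0.066 without day 13 replicate 2), Ms4a6c (adjusted p = 0.11 without day 13 replicate 3) and Ms4a7 (adjusted p = 0.12 without day 13 replicate 2). Ccr2, Ly6c2 and Trem2 did not pass the test. Among 17 Kupffer cell markers 1 was higher, or 2 without day 13 replicate 2 or 3, and 3 lower, and their summed level ran from 718 to 882 CPM at day 9 and 833 to 893 CPM at day 13. Marco, a scavenger receptor, measured 15.6, 17.0 and 15.5 CPM at day 9 and 4.04, 1.99 and 3.14 CPM at day 13. Marco differed by -2.38 ± 0.27 on the log2 scale (SE, adjusted p = 6.8e-05). Cd163, the haptoglobin-hemoglobin receptor, measured 4.86, 3.34 and 5.65 CPM at day 9 and 0.269, 0.285 and 0.758 CPM at day 13. Cd163 differed by -3.31 ± 0.60 on the log2 scale (SE, adjusted p = 0.0021). Both were lower in all 3 day 13 libraries, while the Kupffer markers Clec4f (-0.08, adjusted p = 0.85), Timd4 (-0.06, adjusted p = 0.85) and Vsig4 (-0.70, adjusted p = 0.060) did not pass. Csf1r, the receptor for a macrophage growth factor, was higher (log2 difference 0.55, adjusted p = 0.0081).

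Interferon-stimulated genes were divided within the list, 9 of 41 higher and 8 lower. Usp18, a negative regulator of interferon signalling, measured 3.03, 2.15 and 2.73 CPM at day 9 and 7.27, 6.13 and 5.31 CPM at day 13, with a log2 difference of 1.24 ± 0.19 (SE, adjusted p = 0.00056), and Oas3 and Cxcl10 were higher, at log2 differences of 1.86, adjusted p = 0.0063 and 1.49, adjusted p = 0.0092 from under 2 CPM. Ifit3 measured 7.89, 5.59 and 7.89 CPM at day 9 and 4.04, 2.71 and 3.14 CPM at day 13, with a log2 difference of -1.11 ± 0.23 (SE, adjusted p = 0.0038), and its relatives Ifit1 and Ifit3b were lower, at log2 differences of -1.14, adjusted p = 0.028 and -1.27, adjusted p = 0.040. The classical members Isg15 (0.34, adjusted p = 0.44) and Rsad2 (0.07, adjusted p = 0.89) did not pass. The counts were 2 higher and 3 lower after thinning. Without day 13 replicate 1 they were 3 and 3, without day 13 replicate 2 they were 5 and 3, without day 13 replicate 3 they were 7 and 5, without day 9 replicate 1 they were 8 and 3, without day 9 replicate 2 they were 5 and 8, and without day 9 replicate 3 they were 5 and 2. Of 28 interferon gamma GTPase and class I genes 3 were higher and 4 lower. Of the 16 members without near-identical copies, only 1 was higher and 1 lower, so most of these calls lay in genes whose counts can be divided among copies. Summed with its copies, the higher member H2-T22 had a log2 ratio of 0.17, against 0.99 alone. The lower member Gbp10 had -0.71 summed and -1.38 alone. H2-K1, a class I heavy chain, was higher (log2 difference 0.80, adjusted p = 0.0073), and Nlrc5, the activator of class I genes, lower (log2 difference -1.34, adjusted p = 0.0023). Gbp11, a guanylate-binding protein, measured 146, 131 and 125 CPM at day 9 and 63.0, 50.6 and 74.6 CPM at day 13. Gbp11 differed by -1.09 ± 0.21 on the log2 scale (SE, adjusted p = 0.0032). Gbp11 also shares sequence with other genes, but it had no copy to be summed with. None of 9 class II genes was called by edgeR, DESeq2 or limma-voom, 1 had an unadjusted p under 0.05, on the higher side, and 1 was called higher without day 13 replicate 3. T and NK cell markers had 0 of 21 higher and 1 lower, B and plasma cell markers 0 of 14 and 2, neutrophil markers 0 of 7 and 0, and dendritic cell markers 1 of 10 and 0. Without day 13 replicate 2 the calls of Ms4a1, Ighd and Itgax in these lists were lost (adjusted p = 0.11 to 0.13), and other single libraries ended them as well. The B and plasma cell count was 0 lower without day 9 replicate 1 or 2 or day 13 replicate 2 or 3 and 4 without day 9 replicate 3, the T and NK cell count 0 without day 9 replicate 2 or day 13 replicate 1 or 2, and the dendritic count 0 without any library but day 13 replicate 3. Of the neutrophil markers 3 had an unadjusted p under 0.05 on the higher side and 1 on the lower, DESeq2 called 2 higher and limma-voom 0, and edgeR called 1 higher without day 13 replicate 2 or 3. Single libraries left out also ended the calls of Ifit1 (adjusted p = 0.11 without day 13 replicate 2) and Ifit3b (adjusted p = 0.15 without day 13 replicate 2).

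Acute phase proteins, secreted by hepatocytes in inflammation, were higher in 8 of 30 cases and lower in 2, with a median of 0.38. Hp, haptoglobin, measured 1565, 1955 and 1922 CPM at day 9 and 3464, 3212 and 3526 CPM at day 13. Hp differed by 0.91 ± 0.18 on the log2 scale (SE, adjusted p = 0.0028). Lcn2, lipocalin 2, measured 17.4, 23.7 and 42.6 CPM at day 9 and 83.3, 56.7 and 109 CPM at day 13. Lcn2 differed by 1.58 ± 0.32 on the log2 scale (SE, adjusted p = 0.0057). Day 9 replicate 3 was the highest of the day 9 group for Lcn2, below the lowest day 13 value. Saa1 and Saa2, the main inducible serum amyloids, did not pass (log2 differences 1.61, adjusted p = 0.16 and 2.23, adjusted p = 0.0997), and Mt2 was lower as given above. The higher count was 5 without day 9 replicate 1. Of 20 chemokine and NF-kB target genes 3 were higher, Icam1 (0.92, adjusted p = 0.00026), Vcam1 (0.85, adjusted p = 0.0063) and Cxcl16 (0.63, adjusted p = 0.024), and Cxcl1 was lower (-1.47, adjusted p = 0.0069). The call of Cxcl16 was lost without 4 of the 6 libraries, at 0.099 without day 13 replicate 1 for the largest adjusted p. The complement genes had 0 of 23 higher and 3 lower, or 5 lower without day 13 replicate 3 and 1 higher without day 13 replicate 1; C9 was lower (log2 difference -0.95, adjusted p = 0.0014), while C4a, lower (log2 difference -1.11, adjusted p = 0.0049), had a log2 ratio of -0.01 when summed with its near-identical copy C4b.

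Matrix genes of stellate cells and other mesenchymal cells were higher in 17 of 29 cases and lower in 0, with a median of 0.56. Col1a1, a chain of type I collagen, measured 7.48, 9.14 and 5.33 CPM at day 9 and 24.8, 51.0 and 20.8 CPM at day 13. Col1a1 differed by 2.13 ± 0.35 on the log2 scale (SE, adjusted p = 0.0017). Sparc, a matrix glycoprotein, measured 79.8, 81.7 and 78.6 CPM at day 9 and 168, 248 and 146 CPM at day 13. Sparc differed by 1.23 ± 0.17 on the log2 scale (SE, adjusted p = 0.00034). Bgn, the proteoglycan biglycan, measured 78.2, 91.8 and 79.7 CPM at day 9 and 150.3, 152 and 138 CPM at day 13. Bgn differed by 0.82 ± 0.11 on the log2 scale (SE, adjusted p = 0.00026). In Col1a1 and Sparc day 13 replicate 2 was the highest library. The count was 13 without day 9 replicate 3, the lowest in any fit that left out 1 library, and 15 after thinning. Acta2, the actin of activated stellate cells (0.00, adjusted p = 0.99), Des (0.11, adjusted p = 0.73) and Lrat (-0.16, adjusted p = 0.60) did not pass. Of 19 endothelial markers 5 were higher and 1 lower. Lyve1, a hyaluronan receptor of sinusoidal and lymphatic endothelium, measured 4.76, 5.90 and 3.64 CPM at day 9 and 17.5, 14.0 and 16.7 CPM at day 13, with a log2 difference of 1.75 ± 0.20 (SE, adjusted p = 7.3e-05), and Stab2 (0.26, adjusted p = 0.24) and Kdr (-0.12, adjusted p = 0.57) did not pass. The lower call was lost without day 9 replicate 2 or 3 or day 13 replicate 1 or 2 and after thinning. The count of higher endothelial markers was 3 without day 9 replicate 1, without day 9 replicate 3, without day 13 replicate 1 and after thinning.

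Red cell and platelet transcripts were higher in 9 of 11 cases, with a median of 1.91 and summed levels of 620.3 to 813 CPM at day 9 and 2140.3 to 6018 CPM at day 13. The alpha globin gene Hba-a1 measured 209, 269 and 229 CPM at day 9 and 1217, 2358 and 1016 CPM at day 13. Hba-a1 differed by 2.70 ± 0.49 on the log2 scale (SE, adjusted p = 0.0042). Both alpha globin genes summed gave a log2 ratio of 2.77. Alas2, the erythroid form of the heme enzyme, measured 12.7, 13.6 and 12.3 CPM at day 9 and 35.1, 76.9 and 33.5 CPM at day 13, with a log2 difference of 1.91 ± 0.32 (SE, adjusted p = 0.0020). Day 13 replicate 2 was the highest library for both. The part of blood RNA in the other differences was not tested. Pancreas acinar genes summed to 27.8 to 30.5 CPM at day 9 and 32.8 to 71.8 CPM at day 13. Only 3 of 14 could be tested, and 2, Cela2a and Amy2a5, were higher. Although the day 9 libraries were deeper, 8 of the 14 had no count in any of them, against 1 (Try4) in the day 13 libraries, and their part in other results was not tested. Cell cycle genes had 4 of 28 higher and 0 lower, all 4 at under 4 CPM in every library, and 2 after thinning. That count ran from 1 without day 13 replicate 2 to 7 without day 9 replicate 1 or day 13 replicate 3, and was 2 without any other library.

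Immediate early genes, which are switched on within minutes of a stimulus, were split. Junb measured 34.3, 29.8 and 31.6 CPM at day 9 and 5.79, 5.27 and 4.44 CPM at day 13. Junb differed by -2.63 ± 0.21 on the log2 scale (SE, adjusted p = 2.8e-06). Egr1 measured 52.7, 18.1 and 65.3 CPM at day 9 and 4.31, 4.99 and 2.38 CPM at day 13. Egr1 differed by -3.57 ± 0.76 on the log2 scale (SE, adjusted p = 0.011). Zfp36, which codes for an mRNA decay factor, was lower (log2 difference -1.59, adjusted p = 7.1e-05). Atf3 (1.78, adjusted p = 0.0014), Gadd45b (1.56, adjusted p = 0.0051) and Jun (0.74, adjusted p = 0.011) were higher, and Fos did not pass (log2 difference -0.87, adjusted p = 0.26). In all 6 of 20 were higher and 4 lower; the higher count was 3 without day 9 replicate 1 or 2 or day 13 replicate 1 or 2. Of 24 genes of the unfolded protein response 9 were higher and 1 lower, with a median of 0.17. Dnajb9, an endoplasmic reticulum co-chaperone, measured 42.6, 46.5 and 46.2 CPM at day 9 and 113, 123 and 148 CPM at day 13, with a log2 difference of 1.503 ± 0.14 (SE, adjusted p = 1.1e-05), Manf was higher (log2 difference 1.22, adjusted p = 0.00063) and Hspa5, the chaperone BiP (0.62, adjusted p = 0.0068). Ddit3 (-0.09, adjusted p = 0.85) and Xbp1 (0.12, adjusted p = 0.50) did not pass. Of the sex-biased lists, male-biased genes had 2 of 29 higher and 8 lower and female-biased genes 4 of 30 higher and 5 lower. Cyp3a41a, a female-biased cytochrome, measured 2491, 2868 and 3632 CPM at day 9 and 1222, 808 and 1642 CPM at day 13, with a log2 difference of -1.29 ± 0.22 (SE, adjusted p = 0.0013), and among growth hormone pathway genes Stat5b was lower (log2 difference -0.48, adjusted p = 0.0100). The female-biased counts were 1 higher without day 9 replicate 1 or 2 or day 13 replicate 1 and 2 higher without day 13 replicate 3, and 2 lower without day 9 replicate 3 or day 13 replicate 1 and 3 lower without day 13 replicate 2. The male-biased counts were 5 lower without day 13 replicate 1, and 1 higher without day 13 replicate 1 or 2.

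Many of the largest differences of single genes lay in genes with near-identical copies, for which estimated counts can be divided among the copies in more than one way. Among genes that share at least 20% of their 31-base words with another gene 30.7% were called and 17.6% were called at 2-fold or more, against 20.8% and 4.74% of the rest. mt-Co2, a mitochondrially encoded subunit of cytochrome oxidase, measured 173, 151 and 137 CPM at day 9 and 8669, 6749 and 2154 CPM at day 13, with a log2 difference of 5.25 ± 0.46 (SE, adjusted p = 4.0e-05), but summed with its nuclear copies the log2 ratio was 0.34. The ribosomal gene Rps27 measured 108, 120.0 and 110.1 CPM at day 9 and 1.21, 1.71 and 2.06 CPM at day 13, with a log2 difference of -6.06 ± 0.26 (SE, adjusted p = 1.0e-08), while its retrogene Rps27rt was higher (log2 difference 3.91, adjusted p = 1.2e-05). Their sum had a log2 ratio of 0.20. Mup2 and Mup14, major urinary protein genes, differed, at log2 differences of -4.19, adjusted p = 1.1e-05 and 3.55, adjusted p = 0.0074, and with their copies by -0.33. Rdh16f1, a retinol dehydrogenase relative, measured 18.1, 22.5 and 25.2 CPM at day 9 and had no count in any day 13 control library, at least 56.9-fold lower against a floor of 3 counts in each library; its sum with Rdh9 and Rdh1 had a log2 ratio of 1.08. The histone gene Hist1h2bk was at least 22.5-fold lower by the same floor and level in its sum (0.03). Among named genes sharing at least 20% of their 31-base words, 34 had counts at both days and at least a 2-fold ratio either way. Of these 34 genes, 19 had a summed ratio under 2-fold. The 34 include Gbp11, which had no copy to be summed with, and genes that share 1 sum, such as Mup2 and Mup14. Processed pseudogenes, 43.0% of which were called, had 134 higher and 88 lower of 516, while of 227 lincRNAs 41 were lower and 4 higher and of 206 antisense genes 42 and 3, most of both classes having no call. Without day 9 replicate 1, the library high in nuclear RNA, 33 lincRNAs were lower and 9 higher, and 31 antisense genes lower and 5 higher. The lincRNAs had 2 higher without day 13 replicate 1, and the antisense genes 5 without day 13 replicate 3 and 0 without day 13 replicate 2. The strand setting of the counts is not stated, so reads of an antisense gene and its partner cannot be told apart.

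**Figure D4:**
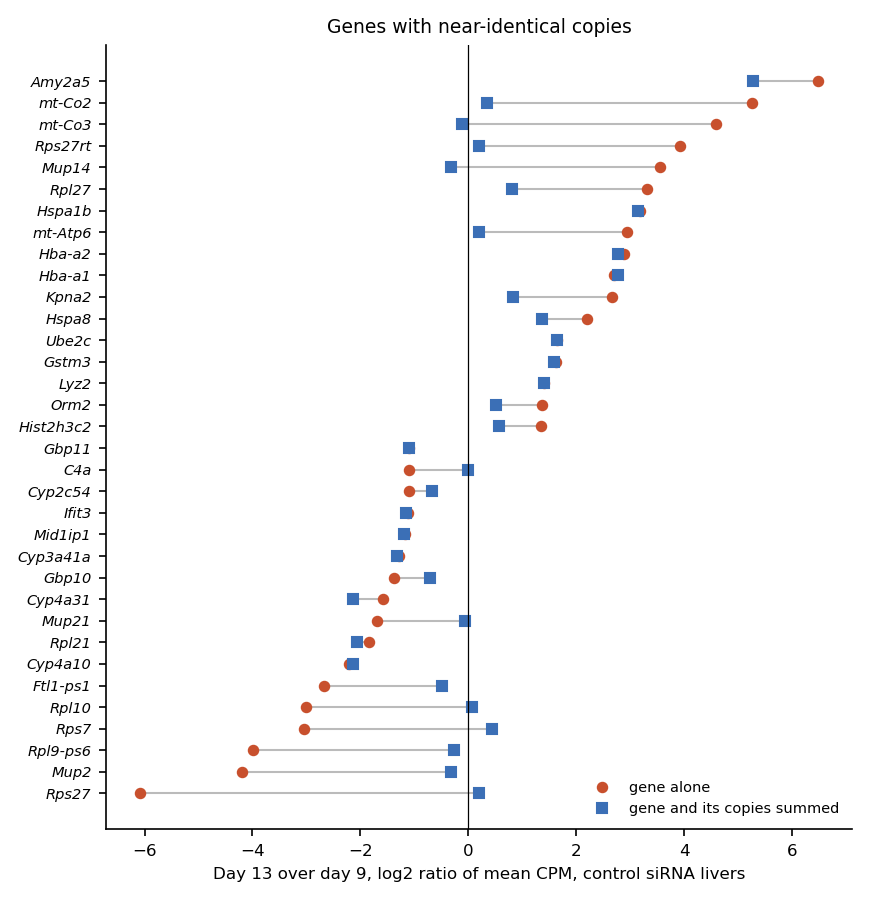
Log2 ratio of mean CPM, day 13 over day 9 controls, for the 34 named genes with near-identical copies and a ratio of at least 2-fold; red circles show the gene alone and blue squares the gene summed with its copies. The squares of mt-Co2, Rps27, Rps27rt, Mup2, Mup14 and Rpl10 lie near 0, those of Hspa1b, Hba-a1, Lyz2 and Cyp4a10 close to their circles.

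The same pair of days could be compared in the Eif3m siRNA livers, which share no library with the control comparison but also hold any change of the siRNA effect with time. Day, library set and depth coincide there too, with 46912540 to 54538581 counts at day 9 and 7650269 to 9630027 at day 13. Both comparisons also came from the same fit. Calls shared by the 2 comparisons therefore cannot tell day from library set or depth. There 1944 genes (13.6%) were higher at day 13 and 1745 (12.2%) lower. Called higher in both were 864 genes, 55.1% of those higher in the controls and 44.4% of those higher in the Eif3m siRNA livers; called lower in both were 753, or 46.1% and 43.2%, and 60 genes were called in opposite directions. The clock genes Arntl, Cry1 and Nr1d2 were called the same way in both, with log2 differences in the Eif3m siRNA livers of 2.71, 1.00 and -1.18. In the controls the call of Arntl was lost after thinning, as given above. Of the temperature-driven genes 7 were higher and 2 lower there, all 9 in common with the controls, with Hspa8 at 1.97 and Hsph1 at 1.64. Of the fatty acid oxidation genes 15 of 43 were lower and 0 higher, 7 of them in common. The matrix genes had 1 of 29 higher and 2 lower there, against 17 and 0 in the controls, with Col1a1 at -0.21 and Sparc at 0.26. The monocyte and macrophage markers had 0 of 19 higher and 6 lower, with Lyz2 at -0.60, and the acute phase proteins 0 of 30 higher and 8 lower, with Hp at -0.16. The difference between the 2 day differences was called for 364 genes, Lyz2 (2.00 on the log2 scale, adjusted p = 0.00066), Hp (1.06, adjusted p = 0.042) and Col1a1 (2.34, adjusted p = 0.036) among them, while Sparc missed the threshold (0.96, adjusted p = 0.053).

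**Figure D5:**
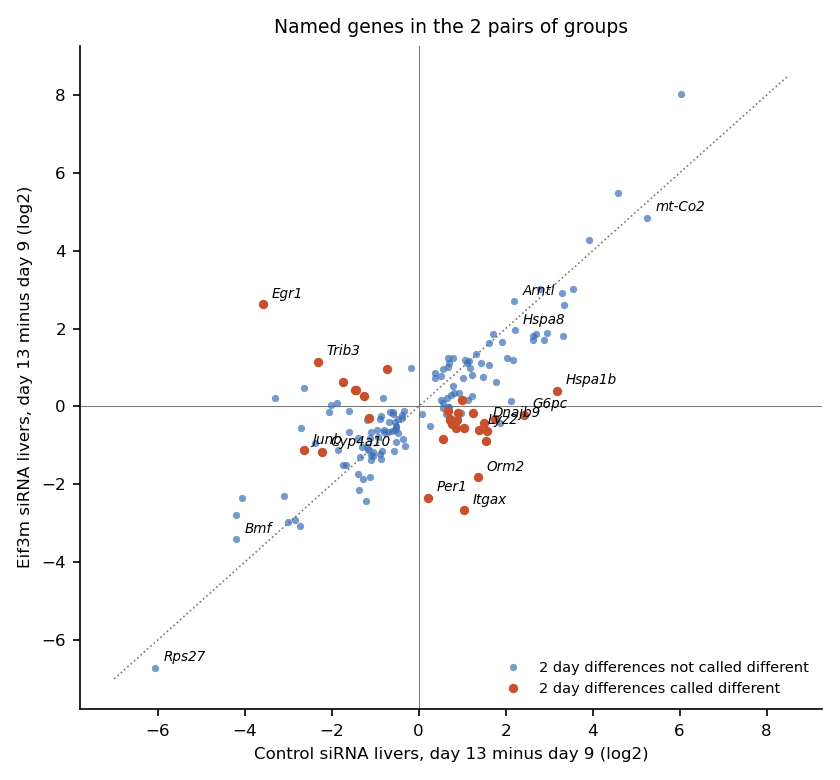
Log2 difference of day 13 minus day 9 for the named genes in control siRNA livers (horizontal) and Eif3m siRNA livers (vertical), with genes whose 2 differences were called different in red and the line of equality dotted; the 2 genes with no count in any day 13 control library are left out. Hspa8, Arntl, Bmf and Rps27 lie near the line, and Egr1 and Trib3 lie at the upper left with opposite signs.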

How the data were processed

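The labels give 12 libraries of ground FVB/N mouse liver, purified with RNeasy columns and made with an mRNA capture kit. The authors deposited expected counts per gene, rounded to whole numbers, for 50686 Ensembl genes; per the submitters' processing notes, the tools were RSEM 1.3.0 and STAR 2.5.3a and the build mm10, whose roles, like the annotation release and strand setting, the sources used here do not give. Expected counts divide reads among similar genes by estimate. Groups came from the labels. Symbols, coordinates, length and GC came from GENCODE M21 (50462 of 50686 genes matched), and shared 31-base words were counted between the longest transcripts of different genes.

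edgeR 4.0.16 in R 4.3.3 (robust quasi-likelihood, TMM scaling, minimum count 10, Benjamini-Hochberg adjustment over 14248 genes, threshold 0.05) fitted 1 model of 4 groups to all 12 libraries, with 8 residual degrees of freedom. Log2 differences are day 13 minus day 9, and CPM values use the TMM-scaled library sizes. Lists are described by counts and medians, with no test of a list. Alternatives used DESeq2 1.42.0, limma 3.58.1 voom, other scalings and filters, length and GC offsets, the 6 control libraries alone, a replicate block, each library left out, and every library thinned to 7650269 counts. Libraries of a group differed by more than counting noise and were each counted as 1 sample.

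Genes were named by rule: the 12 largest rises and 12 largest falls among called protein-coding genes whose groups did not overlap and averaged 5 CPM or more, all core clock and PAR bZIP genes, up to 4 called members of each clock, fasting, lipid, immune and sex list with the smallest p, up to 2 of each other list, and checks (Xist, Y-linked genes, Alb, Eif3m). Further list members were named after their values were seen. Some genes that the rule selected are not reported here. The comparison, members and lists were chosen with earlier results of these data known.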

Additional observations from a re-analysis of the deposited data

Results flagged for a closer look

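For the genes below, the day 13 minus day 9 difference in the control livers differed from that in the Eif3m siRNA livers by the test of the difference itself (edgeR quasi-likelihood, adjusted p under 0.05, over all genes tested). The value after each gene is the control day difference minus the Eif3m siRNA day difference on the log2 scale. With its sign turned it is also the change of the Eif3m siRNA effect from day 9 to day 13, so it cannot be assigned to either set of livers.

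Called lower at day 13 in the controls and higher in the Eif3m siRNA livers were Egr1 (-6.20), Trib3 (-3.47) and Sox9 (-1.71). The immediate early factor Egr1 had the largest value of the genes named. Called higher in the controls and lower in the Eif3m siRNA livers were Itgax (3.72), Orm2 (3.19), Lyz2 (2.00), Dnajb9 (1.92), Vcam1 (1.41) and Csf1r (1.39), 3 of which, Itgax, Lyz2 and Csf1r, are genes of macrophages or dendritic cells.

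Called higher in the controls and in neither direction in the Eif3m siRNA livers were the monocyte and macrophage markers Ms4a7 (3.20), Cd14 (1.22), Ms4a6c (1.13) and Tyrobp (1.04), the acute phase genes Lcn2 (2.22) and Hp (1.06), the endothelial genes Lyve1 (2.07) and Vwf (0.79), the collagen chain Col1a1 (2.34) and the binding protein Igfbp3 (1.08). The heat shock genes Hspa1a (3.37), Hspa1b (2.78) and Dnajb1 (1.14), the glucose genes G6pc (2.64) and Hk2 (1.60), and Gadd45b (2.43), Usp18 (1.41), Slc22a27 (1.23) and H2-T22 (0.83) had the same pattern. Called lower in the controls and in neither direction in the Eif3m siRNA livers were Mup21 (-2.36), Cxcl1 (-1.89), Cyp2u1 (-1.87), C6 (-1.53) and Gpt2 (-0.84). Both sets were called lower for Junb (-1.51) and Cyp4a10 (-1.04), by more in the controls. Not called in the controls but called in the Eif3m siRNA livers were Per1 (2.56), Ccr2 (1.64) and Ddit3 (-1.60), the first 2 lower and Ddit3 higher there.

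Of these, Hspa1a, Hspa1b, H2-T22, Ms4a6c, Slc22a27, Cyp4a10, Orm2, Mup21 and Lyz2 share at least 20% of their 31-base words with another gene, and their division among copies is uncertain. Summed with copies, the log2 ratio in the controls was -0.06 for Mup21 (-1.69 alone), 0.17 for H2-T22 (0.99) and 0.52 for Orm2 (1.37). It changed little for Hspa1b with Hspa1a (3.14), Lyz2 (1.40), Cyp4a10 (-2.13) and Slc22a27 (0.78). Ms4a6c was not summed, and no sums were taken in the Eif3m siRNA livers.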

How the results depend on the processing

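Day, library set and depth coincide, so no setting separates them, and low genes are measured with less precision at day 13. An offset for gene length and GC content gave 2496 genes higher and 1579 lower. Leaving out 1 control library gave 998 to 1724 higher and 1150 to 1771 lower; the lowest higher count came without day 9 replicate 2 and both highest counts without day 13 replicate 3. DESeq2 gave 1922 higher and 1885 lower, limma-voom 1508 and 1465, the 6 control libraries alone 1225 and 1205, thinned counts 1171 and 1243, a mean of at least 5 CPM 1356 and 1195, and no filter on low counts 1161 and 1716. DESeq2 size factors gave 1618 and 1585, upper-quartile scaling 1582 and 1609. Only genes sharing under 20% of their 31-base words, a setting chosen after seeing the data, gave 1280 and 1207. The cause of these differences was not tested. For lists with 0 edgeR calls in a direction where no other count was given, DESeq2 called 1 complement and 1 autophagy gene higher and 0 elsewhere, limma-voom called 0, and an unadjusted p under 0.05 added 1 gene each for higher complement, higher autophagy and lower monocyte and macrophage markers. Of the 158 genes that the naming rule selected 146 were called, 113 of them in every fit without 1 library and 107 in every alternative in which they were tested. No named gene that was called changed sign in any setting run; several uncalled ones near 0, such as Xist, Ciart and Hlf, did.

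With a replicate block, 1453 genes were higher and 1591 lower. Libraries of the same number did not deviate together, with correlations of 0.16, 0.04 and 0.09 between day 9 and day 13 for numbers 1 to 3, so the numbers were not taken to pair the samples. Each day 9 library correlated best with its own number except replicate 2.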

Other observations

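Secreted plasma proteins and detoxification enzymes, not described above, moved in both directions. Of 24 secreted liver proteins 4 were higher and 4 lower. Albumin measured 88862, 86647 and 93498 CPM at day 9 and 159409, 162739 and 143812 CPM at day 13, a log2 difference of 0.79 ± 0.17 (SE, edgeR adjusted p = 0.0043), with no overlap. Trf, transferrin, was higher by a log2 difference of 0.75 ± 0.15 (SE, adjusted p = 0.0029). The lower count was 0 to 2 without any 1 library. Of 29 xenobiotic enzymes 4 were higher and 4 lower, the latter 2 without day 9 replicate 2 or day 13 replicate 1. Gstm3, a glutathione transferase, rose from 51.0, 40.5 and 54.4 CPM at day 9 to 147, 159 and 144 CPM at day 13 (log2 difference 1.63 ± 0.21, SE, adjusted p = 0.00020). Cyp2c54, a cytochrome, measured 502, 559 and 480.1 CPM at day 9 and 234, 262 and 219.97 CPM at day 13 (-1.11 ± 0.13, SE, adjusted p = 7.5e-05). Both share over 20% of their 31-base words with a copy. Summed with its copy Cyp2c37, Cyp2c54 had a log2 ratio of -0.68. Gstm3 summed with its copy had 1.58. Among 47 nuclear-encoded genes of oxidative phosphorylation 4 were higher and 2 lower, and without day 13 replicate 3 there were 16 higher, without any other library 2. Ndufs7, a complex I subunit, measured 50.8, 49.8 and 51.7 CPM at day 9 and 130.1, 126 and 83.0 CPM at day 13 (1.15 ± 0.17, SE, adjusted p = 0.00051).

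Of 61 cytosolic ribosomal protein genes 13 were higher and 10 lower; the higher count was 27 without day 13 replicate 3, 7 without day 13 replicate 1 or 2 and 8 without day 9 replicate 2. Most of these genes have near-identical copies, and 5 of the 11 with under 20% shared 31-base words were higher and 1 lower. Of 15 mitochondrially encoded transcripts 4 were higher and 3 lower, and 3 of the 8 that share under 20% of their 31-base words were lower. Integrated stress response genes had 4 of 24 higher and 2 lower, the latter 1 without day 9 replicate 1 or 3 or day 13 replicate 3. The growth hormone and IGF axis had 1 of 15 higher, Igfbp3, or 2 without day 9 replicate 1 or 3 or day 13 replicate 3, and 1 lower, or 2 without day 13 replicate 3.

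Hepatocyte zonation markers were called about as often as genes in general (22.5%): 2 of 15 pericentral and 2 of 14 periportal markers were higher and 1 of each lower. Summed periportal levels were 103955 to 111891 CPM at day 9 and 159912 to 178204 CPM at day 13. Summed pericentral levels overlapped, at 11313 to 13257 CPM and 10945 to 12235 CPM. Such sums weigh the highest genes most. Albumin, whose levels are given above, is among the periportal markers and makes up most of their sum at both days. The median log2 difference of the periportal list was 0.09. The pericentral higher count was 0 without day 9 replicate 1 or day 13 replicate 2 and 1 without day 9 replicate 2 or 3 or day 13 replicate 1. Its lower count was 0 without day 9 replicate 1 or day 13 replicate 2 or 3 and 2 without day 13 replicate 1. The periportal higher count was 1 without day 9 replicate 1 or day 13 replicate 2, and its lower count 0 without day 9 replicate 3 or day 13 replicate 3. Cholangiocyte markers had 0 of 9 higher by edgeR, 1 at an unadjusted p under 0.05, 0 by DESeq2 and limma-voom, and 2 without day 9 replicate 2. Their 1 lower member, Sox9, was called only in the fits without day 9 replicate 2 or 3 among those that left out 1 library. NRF2 targets had 1 of 19 higher, Gstm1, or 2 without day 13 replicate 3, and 0 lower by edgeR, with 4 at an unadjusted p under 0.05, 2 by DESeq2, 0 by limma-voom and 1 without day 9 replicate 1 or day 13 replicate 3. Replication-dependent histones had 2 of 11 higher, or 1 without day 9 replicate 1, 2 or 3 or day 13 replicate 2, and 1 lower, or 2 without day 9 replicate 1. Nuclear and small noncoding RNAs had 0 of 6 higher, also by DESeq2, limma-voom and an unadjusted p under 0.05, and 1 lower, Mir99ahg, a call lost without day 9 replicate 1 or day 13 replicate 2 or 3. The median of these 6 was -1.89 on the log2 scale, or -0.48 without day 9 replicate 1, in which Malat1 and Neat1 were far above the other control libraries; neither gene was called.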
